A study of Drosophila melanogaster with 12 samples.

Results

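Plasmatocytes, the macrophage-like blood cells of *Drosophila* larvae, were compared between 48 hr and 24 hr after infestation by parasitoid wasps. The cells were chosen by their own UMI counts. A cell counted as a plasmatocyte when it had 1 or more unique molecular identifiers (UMIs, tags that each mark 1 captured RNA molecule) of *Hml* and 0 UMIs of *atilla*, *PPO1* and *PPO2*. Cells also had to hold 500 or more UMIs from 200 or more genes, with no more than 30% of the UMIs from the mitochondrial genome. This gave 750 of 7035 quality-filtered cells at 48 hr and 3710 of 6268 at 24 hr, or 4460 of 13303 in all. The series profiled larval hemocytes by single-cell RNA-seq after wounding or wasp infestation. Only the 2 infested conditions, each with 3 Drop-seq libraries, enter here. They are named wasp inf. 48 hr and wasp inf. 24 hr. All larvae of both times were Oregon R, a wild type strain with no transgene, and all were infested by *Leptopilina boulardi* at 72 hr after egg laying (AEL). The hemolymph of many larvae was pooled for each time, and the labels do not say whether the 3 libraries of a time came from separate pools, so the p-values below measure the spread between these libraries. The 24 hr larvae were bled at 96 hr AEL. For the 48 hr larvae the treatment labels give 128 hr AEL, whereas the sample descriptions and the study's methods give 120 hr AEL. The latter is also 48 hr after infestation at 72 hr AEL. The larvae therefore differed in age as well as in time since infestation, and no uninfested larvae of these ages were analysed here, so age and time after infestation cannot be told apart.

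Plasmatocytes make up most hemocytes of an unchallenged larva. They engulf bacteria and dying cells through receptors of the Nimrod and scavenger families, secrete basement membrane proteins, help to clot hemolymph and can make antimicrobial peptides. They are also a source of lamellocytes, large flat cells marked by *atilla* that build the capsule around a wasp egg, whereas crystal cells carry the prophenoloxidases *PPO1* and *PPO2* for melanization. *Hml* encodes Hemolectin, a secreted clotting protein that marks most larval plasmatocytes.

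The values of *Hml*, *atilla*, *PPO1* and *PPO2* chose the cells, so their levels and the number of plasmatocytes are a description. Plasmatocytes were 13.8%, 9.15% and 9.80% of the quality-filtered cells in the 48 hr libraries, against 34.3%, 66.6% and 56.8% in the 24 hr libraries. The means were 10.9 ± 2.5% at 48 hr and 52.6 ± 16.5% at 24 hr (SD, n = 3 each), and the libraries of the 2 times did not overlap. An exact two-sided permutation test gave p = 0.1, the smallest value that 3 against 3 libraries allow. The exact 95% intervals, which cover counting error only, were widest in 24 hr replicate 1, from 27.8% to 41.3%. The number of plasmatocytes was 257, 188 and 305 in the 48 hr libraries, against 70, 1333 and 2307 in the 24 hr libraries. Shares of cells do not say how many plasmatocytes a larva held, and *atilla*-positive cells numbered 1213, 1473 and 2569 at 48 hr, against 73, 206 and 726 at 24 hr. At the edge of the rule, 64, 45 and 27 plasmatocytes at 48 hr and 9, 162 and 450 at 24 hr had exactly 1 *Hml* UMI. Another 69, 71 and 207 cells at 48 hr and 9, 62 and 174 at 24 hr had *Hml* but were left out for exactly 1 *atilla* UMI.

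**Figure D1:**
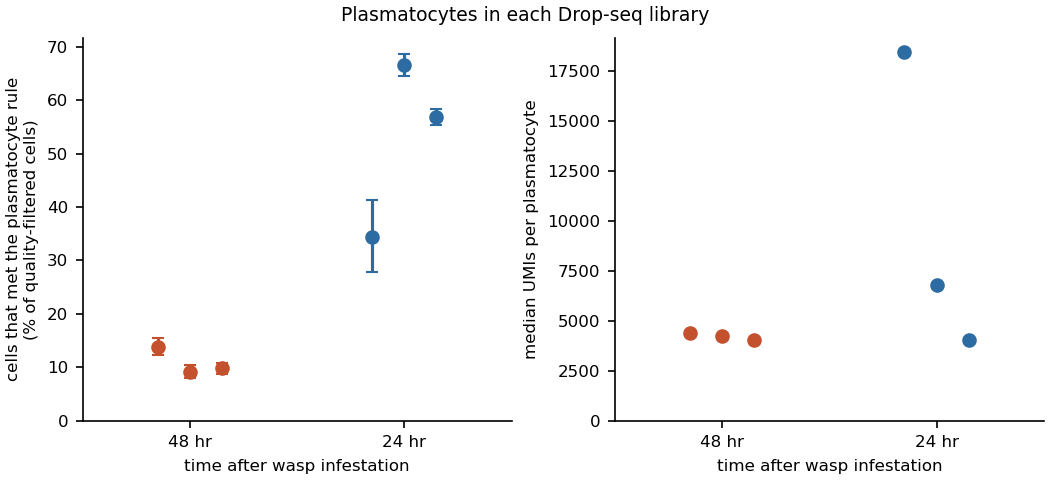
The left panel plots the share of quality-filtered cells (%) that met the plasmatocyte rule in each of the 3 libraries at 48 hr and at 24 hr, with exact 95% intervals for counting error, and the right panel plots the median number of UMIs per plasmatocyte. The 48 hr shares sit between 9.15% and 13.8%, all below the 24 hr shares, and 24 hr replicate 1 stands apart in depth at 18417 UMIs.

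The 24 hr replicate 1 library stood apart, with 70 plasmatocytes and a median of 18417 UMIs in each, against medians of 6775 and 4060 UMIs in the other 24 hr libraries and of 4392, 4257 and 4036 UMIs in the 48 hr libraries. The UMIs summed over plasmatocytes ranged from 996930 to 10577560 per library. The correlation of gene levels across genes (Spearman, a description) was 0.956 to 0.970 among 48 hr libraries, 0.937 to 0.969 among 24 hr libraries and 0.852 to 0.905 between the times. No cell barcode was shared between any pair of libraries. The authors' clusters, used here for the 24 hr cells, placed 3306 of the 3710 plasmatocytes at 24 hr (89.1%) in plasmatocyte clusters, 222 in lamellocyte and 121 in crystal cell clusters. The unit of all levels is CPM. It is a gene's UMI sum over the plasmatocytes of a library, per 1000000 UMIs there, scaled by TMM normalization factors. Among plasmatocyte markers that the rule did not use, *Sr-CI* averaged 1553 CPM at 48 hr and 280.2 CPM at 24 hr, *He* 1662 CPM at 48 hr and 1824 CPM at 24 hr, and *srp* 297 CPM at 48 hr and 214 CPM at 24 hr, so none was absent at either time. Changes are log2 fold changes of 48 hr over 24 hr ± standard error from edgeR's quasi-likelihood test, and every adjusted p is the Benjamini-Hochberg value of that test over all genes. A gene was called when its adjusted p was below 0.05. Since levels are scaled shares of all UMIs of a library, less RNA of a gene per cell and fewer cells that hold it cannot be told apart in them, and the shares of cells with a UMI are given where they matter.

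Of 5995 genes tested, 1100 (18.3%) were called, of which 611 (10.2% of genes tested) were higher and 489 (8.16%) lower at 48 hr. The libraries of the times did not overlap for 2398 genes (40.0%). DESeq2 made 1099 calls with another balance, 497 higher and 602 lower, or 45.2% of its calls higher, against 55.5% with TMM scaling. The median log2 fold change of all genes tested was 0.06. Without 24 hr replicate 1 the test made 1707 calls, 833 higher and 874 lower, while leaving out any 48 hr library left between 574 and 603 calls.

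**Figure D2:**
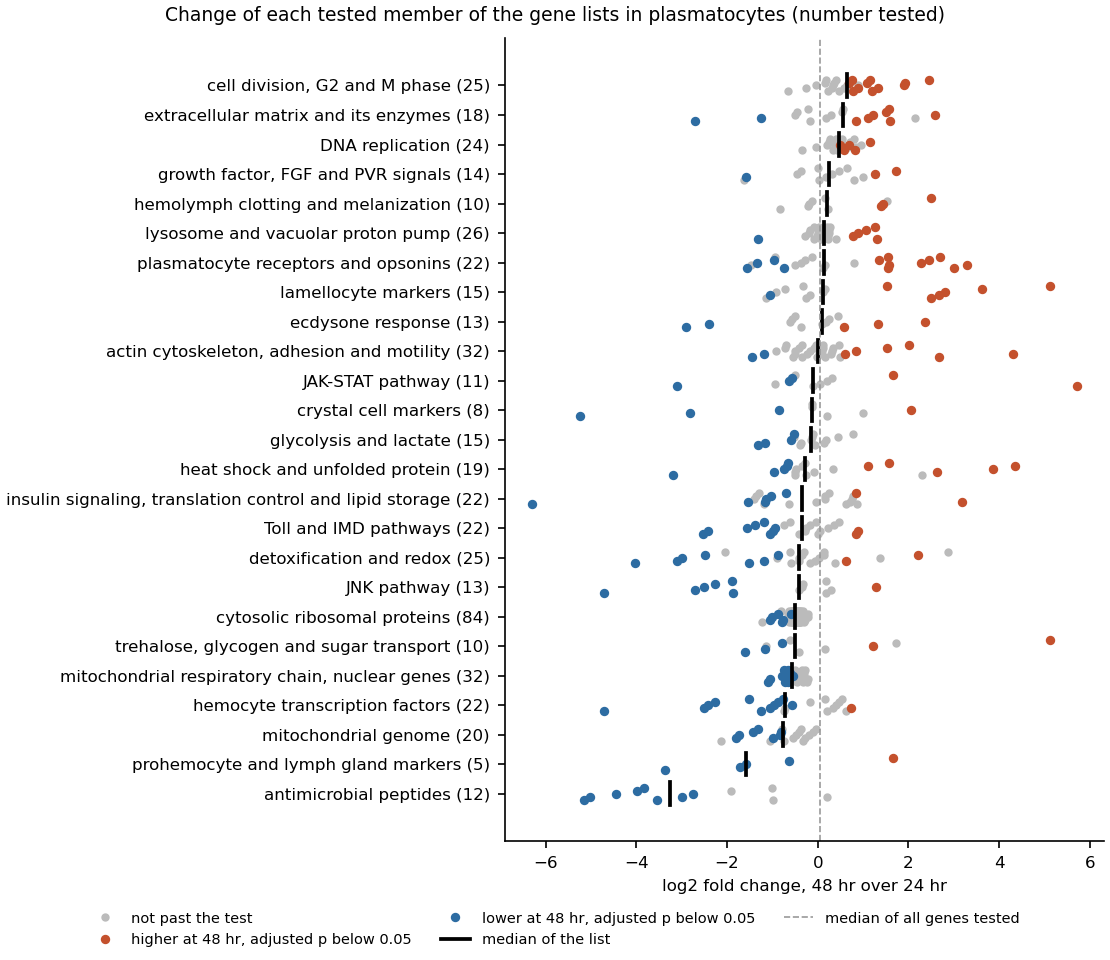
Each point is the log2 fold change, 48 hr over 24 hr, of 1 tested gene of a list in plasmatocytes, red where it was called higher at 48 hr, blue where it was called lower and grey where it did not pass the test. Black bars are list medians and the dashed line is the median of all genes tested, 0.06. Antimicrobial peptides lie furthest to the left, with a median of -3.27, and genes of cell division lie highest among the lists shown, with a median of 0.64.

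Phagocytic receptors of plasmatocytes moved in both directions, and those with the largest changes were higher at 48 hr. Of 29 listed receptors and opsonins, 22 passed the filter on low counts, 9 were called higher, 4 were called lower and 9 were not called. The share called was 59.1%, beside 18.3% of all genes. One of the 9 called higher is the type IV collagen gene *Col4a1*, which is no receptor and is counted among the matrix genes as well. *NimC1*, a Nimrod receptor for bacteria that antibodies to plasmatocytes recognize (2L, 13973158 to 13976769, minus strand), had 883, 921 and 1054 CPM in the 48 hr libraries, against 67.0, 143 and 141 CPM in the 24 hr libraries. Every 48 hr library was far above every 24 hr library, a log2 fold change of 3.00 ± 0.28 (adjusted p = 0.000214). Cells with a *NimC1* UMI were 80.2% to 85.9% of plasmatocytes at 48 hr and 24.3% to 30.8% at 24 hr. With every cell thinned to 1000 UMIs, which left out 2 cells of 24 hr replicate 3, these shares were 52.1% to 68.2% at 48 hr and 10.2% to 11.5% at 24 hr. The same thinning gave 9.57% to 20.2% at 48 hr and 8.29% to 11.7% at 24 hr among the *atilla*-positive cells of these libraries. The 24 hr plasmatocyte shares lay in the range of those cells. The *atilla*-positive cells are no measure of the UMIs that free RNA can leave, since 61.6% to 78.6% of them at 24 hr had an *Hml* UMI before thinning. What part of the *NimC1* UMIs in 24 hr plasmatocytes was free RNA was not tested.

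*crq*, which encodes the scavenger receptor Croquemort for apoptotic cells, had 90.9, 114 and 175 CPM in the 48 hr libraries, against 6.0, 16.4 and 13 CPM in the 24 hr libraries (3.29 ± 0.33, adjusted p = 0.000280). *drpr*, the engulfment receptor Draper, had 106, 118 and 149 CPM at 48 hr, against 19.6, 32.3 and 23.4 CPM at 24 hr (2.27 ± 0.22, adjusted p = 0.000272). Neither gene overlapped between the times. *NimC3*, another receptor of the Nimrod family, had 60.8, 46.0 and 51.5 CPM at 48 hr, against 13.6, 18.9 and 20.1 CPM at 24 hr (1.54 ± 0.20, adjusted p = 0.00118). *eater*, a Nimrod receptor for bacteria and for attachment, averaged 439 CPM at 48 hr and 149 CPM at 24 hr, and was called higher, as was the scavenger receptor *Sr-CI* (1.55 ± 0.23 and 2.46 ± 0.33). Other receptors were lower. *Sr-CIII* averaged 37.3 CPM at 48 hr and 95 CPM at 24 hr and was called lower, as were the secreted Nimrod genes *NimB1* (-0.75) and *NimB5* (-0.97) and the peptidoglycan receptor *PGRP-SA*. The secreted Nimrod genes *NimB2* (1.35) and *NimB3* (2.70) were called higher. The median of the list was 0.13, close to that of all genes, and it was -0.07 without 48 hr replicate 3.

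Basement membrane genes were higher at 48 hr for the collagens and for several glycoproteins, while *Mmp1*, which encodes a matrix metalloproteinase that cleaves matrix, was lower. Of 21 genes of the extracellular matrix and its enzymes, 18 were tested, 7 were called higher and 2 lower, with a median of 0.55. The share called was 50%, beside 18.3% of all genes. *Glt*, which encodes the matrix protein Glutactin (2L, 8672698 to 8676804, plus strand), had 2705, 2682 and 3202 CPM at 48 hr, against 172, 767 and 485 CPM at 24 hr. All 48 hr libraries were above all 24 hr libraries, and the log2 fold change was 2.58 ± 0.44 (adjusted p = 0.00392). In thinned cells a *Glt* UMI was seen in 73.9% to 83.9% of plasmatocytes at 48 hr and 12.9% to 30.7% at 24 hr, against 9.78% to 22.7% of *atilla*-positive cells at 48 hr and 13.7% to 24.3% at 24 hr. *Pxn*, which encodes Peroxidasin, an enzyme that links collagen, had 594, 687 and 789 CPM at 48 hr, against 198, 366 and 324 CPM at 24 hr (1.21 ± 0.24, adjusted p = 0.00768). *LanB2*, the gamma chain of laminin, had 218, 268 and 223 CPM at 48 hr, against 84.3, 128 and 113 CPM at 24 hr (1.11 ± 0.19, adjusted p = 0.00398).

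The type IV collagen genes *Col4a1* (listed as *Cg25C*) and *vkg* changed by 1.57 ± 0.43 and 1.51 ± 0.39, and *SPARC* (listed as *BM-40-SPARC*), a collagen-binding glycoprotein, by 1.59 ± 0.36, all called higher. *LanB1* and *LanA*, the other laminin chains, had log2 fold changes of 0.54 and -0.22 and were not called. *Mmp1* had 138, 148 and 181 CPM at 48 hr, against 593, 2161 and 319.7 CPM at 24 hr. The groups did not overlap, but the 24 hr libraries spread widely, and the change of -2.72 ± 0.60 (adjusted p = 0.0144) lost its call when any single 48 hr library was left out (adjusted p 0.0637 to 0.0734). *Nplp2*, which encodes a precursor of secreted peptides, was the other matrix-list gene called lower and averaged 12058 CPM at 48 hr and 28604.5 CPM at 24 hr. Of the clotting and melanization genes, 10 of 19 were tested and 3 were called, all higher, a share of 30% beside 18.3% of all genes. *MP1*, a serine protease of the melanization cascade, had 119.6, 152 and 127 CPM at 48 hr, against 32.4, 57.1 and 57.8 CPM at 24 hr (1.39 ± 0.23, adjusted p = 0.00311). *Spn28Dc*, a serpin that restrains phenoloxidase, changed by 1.44 ± 0.23 (adjusted p = 0.00308), and the lamellocyte phenoloxidase *PPO3* is given with the lamellocyte markers below.

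**Figure D3:**
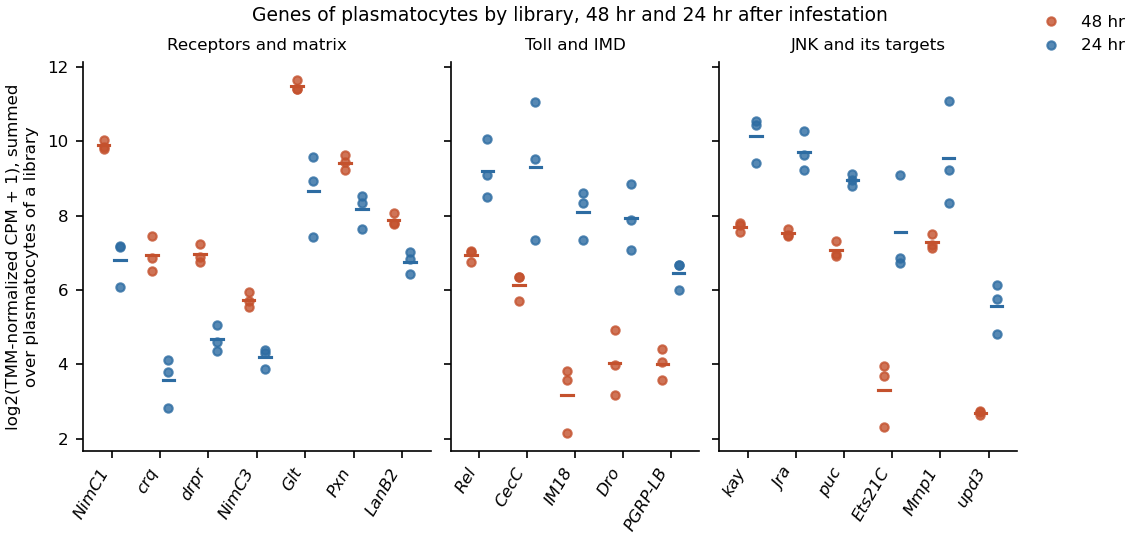
Levels of 18 genes in plasmatocytes on the scale of log2(TMM-scaled CPM + 1), with 48 hr to the left of 24 hr for each gene. Each point is 1 library and each bar the mean of the 3 logarithms. All 18 were called, and other members of their lists were not called or were called in the other direction. The receptor and matrix genes shown lie higher at 48 hr, for instance *NimC1* with 883 to 1054 CPM against 67.0 to 143 CPM. The genes shown in the Toll and IMD panel, which includes antimicrobial peptide genes, and in the JNK panel lie lower, with the widest spread among the 24 hr libraries.

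Antimicrobial peptide genes were lower at 48 hr. Of 25 genes listed, 23 were in the tables and 12 were tested, of which 8 were called lower and none higher, with a median of -3.27. The share called was 66.7%, beside 18.3% of all genes. *IM18*, an immune-induced peptide gene, had 13.1, 11 and 3.43 CPM at 48 hr, against 322, 386 and 162 CPM at 24 hr, a gap between the times in every library (-5.02 ± 0.47, adjusted p = 0.000214). *Dro*, which encodes Drosocin, a peptide against Gram-negative bacteria, had 29.4, 14.7 and 8.01 CPM at 48 hr, against 233, 458 and 135 CPM at 24 hr (-3.99 ± 0.55, adjusted p = 0.00140). The other 6 calls were *CecA1*, *CecA2*, *CecB*, *CecC*, *AttA* and *AttB*. Cecropins and attacins have near-identical copies, so the division of reads among them is uncertain. *CecC* had 80.4, 80.0 and 50.9 CPM at 48 hr, against 729, 2122 and 161 CPM at 24 hr. The spread at 24 hr was as wide for the other cecropins, and without 48 hr replicate 3 the calls of *CecA1*, *CecA2* and *CecC* were lost (adjusted p 0.0528 to 0.0672). *Drs*, the antifungal peptide Drosomycin, had a log2 fold change of -0.99 and was not called. The summed level of the whole list was 646, 551 and 425 CPM at 48 hr, against 2969, 7505 and 879 CPM at 24 hr.

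Genes of the Toll and IMD pathways, which induce these peptides, were called in both directions. Of 22 genes of Toll and IMD signaling tested, 2 were called higher and 8 lower, a share of 45.5% beside 18.3% of all genes. *Rel*, the NF-kappaB factor of the IMD pathway, had 107, 131 and 129 CPM at 48 hr, against 358, 1067 and 541 CPM at 24 hr (-2.43 ± 0.36, adjusted p = 0.00206). *PGRP-LB*, an amidase that degrades peptidoglycan and dampens IMD signaling, had 15.7, 20.2 and 10.9 CPM at 48 hr, against 101, 101 and 62.6 CPM at 24 hr (-2.52 ± 0.29, adjusted p = 0.000501). The IMD inhibitors *PGRP-LF* and *pirk* changed by -0.98 and -1.20, the Toll inhibitor *cact* by -1.38, the Toll factor *dl* by -1.06, *Tl* itself by -0.95 and *PGRP-SA* by -1.56, all called lower. *tub*, an adaptor of Toll signaling, and *ird5*, a kinase of IMD signaling, were called higher, by 0.84 and 0.88. The adaptors *imd*, *Fadd* and *Myd88* had log2 fold changes of 0.46, 0.04 and -0.17 and were not called.

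JNK signaling acts through a kinase cascade onto the AP-1 factors *kay* (Fos) and *Jra* (Jun), which induce the phosphatase gene *puc*, and it is engaged by wounding. Of 15 genes listed, 13 were tested, 6 were called lower and 1 higher, a share of 53.8% beside 18.3% of all genes. *kay* had 212, 223 and 188 CPM at 48 hr, against 674, 1481 and 1390.5 CPM at 24 hr (-2.51 ± 0.29, adjusted p = 0.000569). *Jra* had 178, 199.5 and 173 CPM at 48 hr, against 602, 1240.5 and 786 CPM at 24 hr (-2.26 ± 0.26, adjusted p = 0.000624). *puc* had 119, 125 and 159 CPM at 48 hr, against 492, 558 and 439.9 CPM at 24 hr (-1.89 ± 0.18, adjusted p = 0.000271). None of the 3 genes overlapped between the times. *Ets21C*, a stress-induced ETS factor, had 14.4, 12 and 4.01 CPM at 48 hr, against 105, 547 and 115 CPM at 24 hr (-4.71 ± 0.77, adjusted p = 0.00309). The kinases themselves, *slpr*, *hep*, *bsk*, *Tak1* and *msn*, lay between -0.41 and 0.29 and none was called. The TNF ligand *egr* was the member called higher, by 1.28.

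*upd3*, a cytokine that activates JAK-STAT signaling, had 5.23, 5.52 and 5.72 CPM at 48 hr, against 68.5, 52.7 and 26.9 CPM at 24 hr (-3.11 ± 0.41, adjusted p = 0.00113). Of 17 genes of the JAK-STAT list, 11 were tested, 2 were called higher and 3 lower, a share of 45.5% beside 18.3% of all genes. The receptor *dome* was called higher and the antagonistic receptor *et* lower, but each call was lost on leaving out any 1 of 5 of the 6 libraries. *TotM*, a stress-induced humoral gene, was higher at 48 hr, with 209, 175 and 91.6 CPM, against 0, 1.81 and 4.91 CPM at 24 hr (5.70 ± 0.53, adjusted p = 0.000213). Few cells held most of it: 371 of the 669 *TotM* UMIs at 48 hr lay in the 3 richest cells of each library. Among 22 transcription factors of hemocytes tested, 11 were called lower and 1 higher, a share of 54.5% beside 18.3% of all genes. Besides *Rel*, *dl*, *kay*, *Jra* and *Ets21C*, the lower ones included *zfh1*, *aop*, *CrebA*, *Xbp1* and *Stat92E*, the factor of JAK-STAT signaling. The GATA factor *srp* had a log2 fold change of 0.46 and was not called, and *pnt*, an ETS factor of Ras signaling, was called higher by 0.73.

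Cell division genes were higher in plasmatocytes at 48 hr. All 25 genes of the G2 and M phase list were tested, 11 were called higher and none lower, with a median of 0.64. The share called was 44%, beside 18.3% of all genes. *stg*, the Cdc25 phosphatase that starts mitosis (3R, 29251826 to 29255800, minus strand), had 277, 275 and 311 CPM at 48 hr, against 67.0, 53.3 and 106 CPM at 24 hr (1.92 ± 0.25, adjusted p = 0.00112). A *stg* UMI was seen in 23.3% to 25.0% of thinned plasmatocytes at 48 hr and 2.86% to 8.20% at 24 hr, against 2.10% to 5.80% of thinned *atilla*-positive cells at 48 hr and 3.87% to 9.59% at 24 hr. *CycB*, a mitotic cyclin, had 55.6, 51.5 and 58.4 CPM at 48 hr, against 29.4, 26.2 and 23.7 CPM at 24 hr (1.09 ± 0.17, adjusted p = 0.00264), a call lost in thinned cells (0.92, adjusted p = 0.0922). Unlike the shares of thinned cells, tests in thinned cells here and below applied the rule again to the thinned counts of all quality-filtered cells. This took 212, 160 and 466 cells at 48 hr and 47, 999 and 1736 at 24 hr, in part cells that the rule had left out. *asp*, a spindle pole protein, had 12.4, 12.9 and 12 CPM at 48 hr, against 3.76, 3.51 and 2.94 CPM at 24 hr (1.90 ± 0.29, adjusted p = 0.00221). *borr*, *aurA*, *cid*, *mad2*, *ncd*, *pav*, *pim* and *tum*, which act at the spindle, the centromere or cytokinesis, made up the other calls, with changes between 0.70 and 2.45. The cyclin-dependent kinase *Cdk1* and the cyclin *CycA* had log2 fold changes of 0.23 and 0.34 and were not called.

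Of 27 DNA replication genes, 24 were tested, 5 were called higher and none lower, and 22 of the 24 log2 fold changes were positive, with a median of 0.47. The share called was 20.8%, near the 18.3% of all genes. *RnrS*, a subunit of ribonucleotide reductase, had 76.5, 85.5 and 81.8 CPM at 48 hr, against 45.9, 48.6 and 43.6 CPM at 24 hr (0.82 ± 0.15, adjusted p = 0.00607), a call lost in thinned cells (0.60, adjusted p = 0.241). *DNApol-alpha180*, the catalytic subunit of the primase polymerase, had 27.5, 23.0 and 25.2 CPM at 48 hr, against 12, 11 and 11.2 CPM at 24 hr (1.16 ± 0.21, adjusted p = 0.00558). The other calls were *PCNA*, *Mcm7* and *RpA-70*, by 0.49, 0.70 and 0.57. That of *Mcm7* was lost on leaving out any 1 of 5 of the 6 libraries and that of *RpA-70* on leaving out any 1 of 4.

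Genes of respiration and translation had small negative changes. All 32 tested nuclear genes of the mitochondrial respiratory chain had negative log2 fold changes, with a median of -0.57, and 13 were called lower. The share called was 40.6%, beside 18.3% of all genes. *ND-75* (listed as *ND75*), a subunit of complex I, had 77.8, 80.0 and 60.1 CPM at 48 hr, against 162, 136 and 151 CPM at 24 hr (-1.04 ± 0.17, adjusted p = 0.00337). All 84 cytosolic ribosomal protein genes tested were also negative, with a median of -0.50, but 6 were called, a share of 7.14% beside 18.3% of all genes. *RpL22* had 651, 658 and 702 CPM at 48 hr, against 1733, 1343 and 1076 CPM at 24 hr (-1.04 ± 0.20, adjusted p = 0.00685). Of the mitochondrial genome, 20 genes were tested, all were negative and 7 were called lower, a share of 35% beside 18.3% of all genes. Among them was *mt:ND1* with 379.9, 372 and 459 CPM at 48 hr, against 808, 855 and 751 CPM at 24 hr (-0.99 ± 0.16, adjusted p = 0.00320). Levels are shares of a library's UMIs divided by its TMM factor. These factors were 1.09, 1.10 and 1.16 in the 48 hr libraries and 1.03, 0.805 and 0.871 in the 24 hr libraries. Sums of levels carry them too and are not plain shares of UMIs. DESeq2 scaling moved the median of these lists down by less than 0.1. In 24 hr replicate 2 and 3 the ribosomal genes held 436273 and 375942 CPM in sum, while 24 hr replicate 1 held 288969 CPM, close to the 279621, 271098 and 230076 CPM of the 48 hr libraries.

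Of 15 glycolytic genes tested, 4 were called lower and none higher, a share of 26.7% beside 18.3% of all genes. *Gapdh2*, the glycolytic dehydrogenase, had 312, 305 and 310.2 CPM at 48 hr, against 681, 655 and 726 CPM at 24 hr (-1.15 ± 0.15, adjusted p = 0.00102). *Ald1* (listed as *Ald*), aldolase, had 228, 225 and 205 CPM at 48 hr, against 459, 506 and 662 CPM at 24 hr (-1.31 ± 0.18, adjusted p = 0.00148). Both genes kept their libraries apart by time. *Tpi* and *Gapdh1* were called lower by 0.59 and 0.52 on the log2 scale, and each call was lost on leaving out any 1 of 5 of the 6 libraries. Among sugar genes, *Pgm*, which interconverts glucose phosphates, and the sugar transporter *sut1* were called lower (-1.17 and -1.61), and *UGP*, which makes UDP-glucose, was called higher (1.21). Insulin and lipid genes moved both ways, with 6 of 22 called lower and 2 higher, a share of 36.4% beside 18.3% of all genes. *Lip4*, a predicted lipase (2L, 10527572 to 10531778, plus strand), had 0.654, 3.68 and 0.572 CPM at 48 hr, against 88.8, 135 and 111 CPM at 24 hr, a log2 fold change of -6.30 ± 0.43 (adjusted p = 3.74e-05). *FASN1* (listed as *CG3523*), fatty acid synthase, and *SREBP* (listed as *HLH106*), a factor that induces lipid synthesis, were called lower, by -1.53 and -1.04. *Lsd-1*, which coats lipid droplets, had 14.4, 8.28 and 14.3 CPM at 48 hr, against 0.753, 1.45 and 1.42 CPM at 24 hr (3.18 ± 0.37, adjusted p = 0.000631).

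Stress genes were called in both directions. Of 27 genes of heat shock and the unfolded protein response, 19 were tested, 5 were called higher, 5 lower and 9 were not called. The share called was 52.6%, beside 18.3% of all genes. The small heat shock protein gene *Hsp23* had 214, 174 and 179.7 CPM at 48 hr, against 9.79, 7.98 and 19.3 CPM at 24 hr (3.87 ± 0.32, adjusted p = 0.000112). *Hsp68* had 26.8, 36.8 and 57.2 CPM at 48 hr, against 1.51, 1.94 and 2.07 CPM at 24 hr (4.36 ± 0.36, adjusted p = 0.000104), and *Hsp26*, *Hsp27* and *DnaJ-1* were called higher as well. The heat shock co-chaperone gene *stv* had 7.85, 9.20 and 8.59 CPM at 48 hr, against 76.0, 101 and 56.0 CPM at 24 hr (-3.19 ± 0.29, adjusted p = 0.000164). The other 4 called lower were *Xbp1* at -0.97, *Hsc70-3* (BiP) at -0.75, *Gp93* at -0.65 and *crc* (ATF4) at -0.67, which act in the unfolded protein response or in folding in the endoplasmic reticulum. In the detoxification list 2 of 25 tested genes were called higher and 7 lower, a share of 36% beside 18.3% of all genes. *Gclc*, which limits the rate of glutathione synthesis, had 30.7, 37.7 and 29.2 CPM at 48 hr, against 197, 398 and 169 CPM at 24 hr (-2.98 ± 0.34, adjusted p = 0.000530). *GstD2* had 1.96, 2.76 and 2.29 CPM at 48 hr, against 25.6, 28.9 and 56.2 CPM at 24 hr (-4.03 ± 0.46, adjusted p = 0.000501). The oxidative stress factor *cnc* (Nrf2) and its inhibitor *Keap1* were both called lower, by -0.88 and -2.49, while *Sod1* (listed as *Sod*) and *Sod2* were at 0.37 and -0.35 and not called.

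Of 26 lysosomal genes tested, 5 were called higher, 1 lower and 20 were not called, a share of 23.1% called beside 18.3% of all genes. *Cp1*, a cathepsin L, had 1299, 1389 and 1605 CPM at 48 hr, against 477, 655 and 597 CPM at 24 hr (1.31 ± 0.18, adjusted p = 0.00148). *cathD*, *Npc1a*, *Npc2a* and *Lamp1* were called higher by 1.26, 1.06, 0.90 and 0.77, and *LManII* (listed as *LM408*), a lysosomal mannosidase, was called lower by -1.32. The call of *Npc1a* was lost in thinned cells (adjusted p = 0.0633). The tested pump subunits lay between -0.28 and 0.27, and none was called. The actin list had a median of 0.00, with 6 of 32 tested genes called higher and 2 lower, a share of 25% beside 18.3% of all genes. *sn*, which encodes the actin bundler Fascin, had 81.1, 67.1 and 95.6 CPM at 48 hr, against 3.01, 4.6 and 3.93 CPM at 24 hr (4.31 ± 0.23, adjusted p = 7.93e-06). *Fit1*, a kindlin that activates integrins, had 54.9, 60.7 and 58.4 CPM at 48 hr, against 105, 150.2 and 140.1 CPM at 24 hr (-1.19 ± 0.18, adjusted p = 0.00227), a call lost in thinned cells (-0.79, adjusted p = 0.110).

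Ecdysone pulses time the end of larval life, and the 48 hr larvae were the older ones. Of 13 genes of the ecdysone response tested, 3 were called higher and 2 lower, a share of 38.5% beside 18.3% of all genes. *Eip74EF*, an early ecdysone gene, had 53.6, 46.9 and 44.1 CPM at 48 hr, against 6.0, 8.10 and 12.2 CPM at 24 hr (2.35 ± 0.26, adjusted p = 0.000422). The receptor *EcR* was called higher by 1.33, a call that was lost without any 48 hr library (adjusted p 0.0594 to 0.10). *vri* and *Eip78C* were lower, by -2.40 and -2.92. *br* and *Eip75B*, other early genes, had log2 fold changes of 0.26 and -0.60 and were not called. Among growth factor genes, *spi*, an EGF ligand, was called higher by 1.27 and *Pvf2*, a ligand of the PVR receptor, lower by -1.59. The call of *spi* was lost without 48 hr replicate 3, and that of *Pvf2* without 3 of the 6 libraries.

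*CG8501*, a gene of unknown function chosen for the text after its values were seen, had 2827, 2914 and 3008 CPM at 48 hr, against 97.9, 101 and 106 CPM at 24 hr, with little spread at either time (4.84 ± 0.18, adjusted p = 1.79e-06). Thinned cells with a *CG8501* UMI were 73.9% to 78.7% of plasmatocytes at 48 hr and 6.16% to 8.57% at 24 hr, against 22.9% to 32.6% of *atilla*-positive cells at 48 hr and 6.08% to 13.7% at 24 hr. *CG8157*, also of unknown function and chosen in the same way, had 4404, 3069 and 2727 CPM at 48 hr, against 26777, 29386 and 37396 CPM at 24 hr (-3.20 ± 0.26, adjusted p = 0.000104). It had a UMI in every plasmatocyte at 24 hr and in 76.1% to 85.2% at 48 hr. Thinned *atilla*-positive cells with a *CG8157* UMI were 80.8% to 96.8% at 24 hr and 41.1% to 45.5% at 48 hr. Whether these UMIs were the cells' own RNA or free RNA was not tested. *Miox* (listed as *CG6910*), inositol oxygenase, had 180.4, 159 and 267 CPM at 48 hr, against 0.753, 0.363 and 0.654 CPM at 24 hr (8.48 ± 0.36, adjusted p = 2.10e-06). *Gal*, a beta-galactosidase, and *Jabba*, a lipid droplet protein that binds histones, were higher by 6.65 ± 0.35 and 6.31 ± 0.26, and *Ama*, an adhesion protein, by 6.16 ± 0.42. In *atilla*-positive cells *Miox*, *Gal*, *Jabba* and *Ama* were called higher too, by 5.62, 4.02, 5.24 and 3.40. By the test of class by time given below, only the change of *Ama* differed between the classes (adjusted p = 0.0277). For *Miox*, *Gal* and *Jabba* that test gave adjusted p of 0.398, 0.385 and 0.617.

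*miple2*, which encodes a midkine-like secreted factor, had 105, 96.5 and 156 CPM at 48 hr, against 9.79, 1.57 and 0.981 CPM at 24 hr (5.75 ± 0.60, adjusted p = 0.000319). *fax*, a gene best known from axons and listed here among neuronal markers, had 494, 469.9 and 728 CPM at 48 hr, against 55.7, 23.0 and 24.1 CPM at 24 hr (4.14 ± 0.37, adjusted p = 0.000158). Thinned plasmatocytes with a *fax* UMI were 29.3% to 41.6% at 48 hr and 1.39% to 8.57% at 24 hr. *Vago*, a secreted antiviral factor, had 0, 0 and 1.14 CPM at 48 hr, against 31.6, 19.7 and 8.94 CPM at 24 hr (-5.25 ± 0.89, adjusted p = 0.00387), and *odd*, a zinc finger factor, had 1.96, 0 and 0.572 CPM at 48 hr, against 45.9, 10.3 and 18.8 CPM at 24 hr, a call lost without 48 hr replicate 3 (adjusted p = 0.0524). The genes *CG16713*, *CG17570* and *CG15550*, for which no role is given here, were lower by -5.21, -5.28 and -5.62, and *CG4950* was higher by 7.17, *Gs1*, a glutamine synthetase, by 5.59 and *Cpr49Ac*, a cuticle protein, by 5.17, all called. *Vago*, *CG17570* and *CG15550* had 2 UMIs each at 48 hr, all in 1 library, so the size of their changes is uncertain, and 307 of the 476 *CG15550* UMIs at 24 hr lay in the 3 richest cells of each library. Among markers of prohemocytes, *Tep4*, a thioester protein known from lymph gland prohemocytes (2L, 19548507 to 19556451, plus strand), had 92.8, 92.0 and 102 CPM at 48 hr, against 1037, 1242 and 699 CPM at 24 hr (-3.37 ± 0.24, adjusted p = 4.42e-05). *Ance*, an angiotensin-converting enzyme also used as a lymph gland marker, had 524, 505 and 565 CPM at 48 hr, against 1560.0, 2355 and 1315 CPM at 24 hr (-1.71 ± 0.23, adjusted p = 0.00124). Of the 5 genes tested from the list of prohemocyte and lymph gland markers, 4 were called lower and 1 higher, beside 18.3% of all genes called. Its defining members *hh*, *Antp* and *kn* were too low to test.

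**Figure D4:**
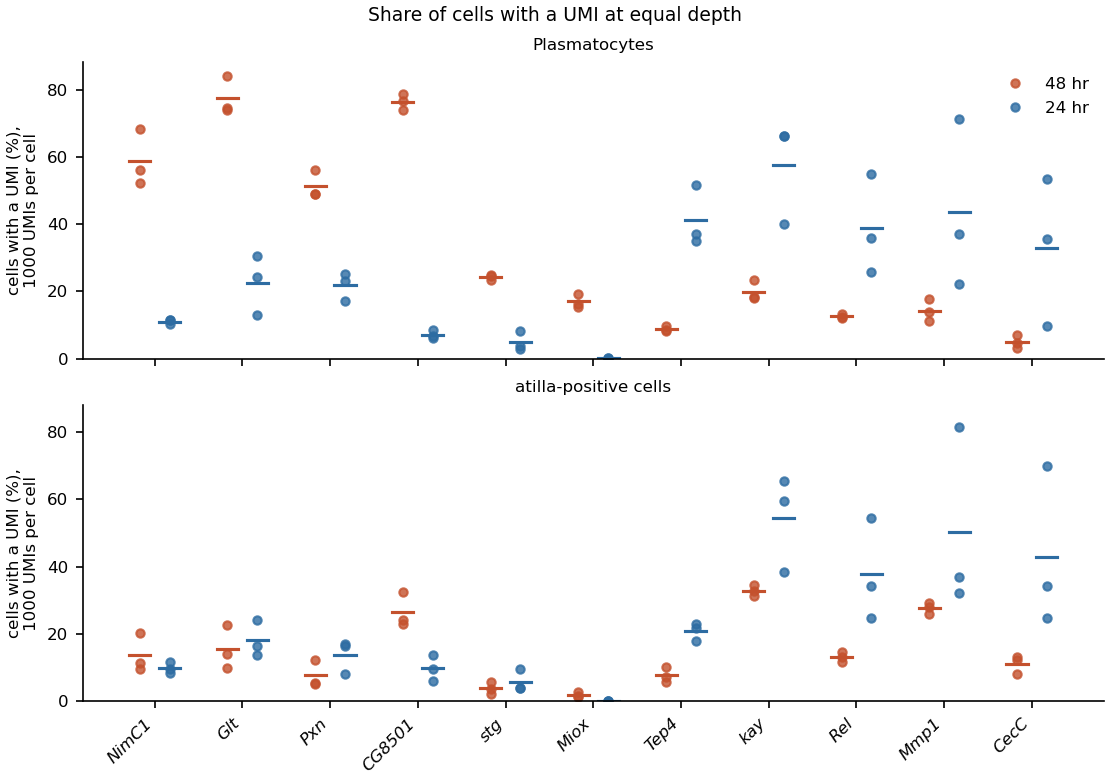
Share of cells (%) with at least 1 UMI of each of 11 genes after every cell was thinned to 1000 UMIs, in plasmatocytes (top) and in *atilla*-positive cells of the same libraries (bottom). Points are libraries, bars are means, and 48 hr stands left of 24 hr. *NimC1* reaches 52.1% to 68.2% of plasmatocytes at 48 hr against 10.2% to 11.5% at 24 hr and at most 20.2% of *atilla*-positive cells at 48 hr, while *Tep4*, *kay* and *Rel* are seen in fewer plasmatocytes at 48 hr.

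Markers of other cells moved with these results. Lamellocyte genes were called higher in plasmatocytes for 6 of 15 tested and lower for 1, although *atilla* was 0 by the rule. The share called was 46.7%, beside 18.3% of all genes. *alphaTub85E*, a tubulin of lamellocytes, had 195, 254 and 310.2 CPM at 48 hr, against 12.8, 21.3 and 24.2 CPM at 24 hr (3.63 ± 0.26, adjusted p = 4.96e-05), while it averaged 9446 CPM at 48 hr and 1432 CPM at 24 hr in *atilla*-positive cells. *betaTub60D*, *CG1208* (a sugar transporter), *PPO3*, *Drip* (an aquaporin) and *mdu* (listed as *CG2556*) were higher as well, and each averaged more in *atilla*-positive cells of both times. The summed level of the 18 lamellocyte markers was 1752, 1980 and 2150 CPM at 48 hr, against 1863, 2221 and 1590 CPM at 24 hr, and so overlapped between the times. It was 42069 to 47488 CPM at 48 hr and 8360 to 16301 CPM at 24 hr in *atilla*-positive cells. Of the plasmatocytes, 75.1%, 81.4% and 92.8% at 48 hr and 90.0%, 56.3% and 38.1% at 24 hr had a UMI of at least 1 of 5 further lamellocyte markers. Cells with none of them numbered 64, 35 and 22 in the 48 hr libraries and 7, 582 and 1429 in the 24 hr libraries, so 24 hr replicate 1 rested on 7 cells. In these cells 193 genes were called higher and 100 lower of 2122 tested, and *NimC1* changed by 3.30, *CG8501* by 5.64 and *kay* by -1.95, all called. Of 64 named calls with a value there, 17 were lost (adjusted p 0.0541 to 0.880): *Ald1*, *Tpi*, *Gapdh1*, *PGRP-SA*, *PGRP-LF*, *et*, *Pvf2*, *SREBP*, *ND-75*, *blw*, *RFeSP*, *ATPsyn-Cf6*, *RpA-70*, *SCAR*, *RpS14b*, *RpL34b* and *Arc1*. The part of lamellocyte RNA in the other calls was not tested. The 13 crystal cell markers summed to 476, 455 and 437 CPM at 48 hr, against 462, 481 and 561 CPM at 24 hr. Of 8 tested, *CG7860* was called higher and *klu*, *CG17109* and *Men-b* lower, a share of 50% beside 18.3% of all genes. *klu* averaged 0.599 CPM at 48 hr, from 3 UMIs, and 25.4 CPM at 24 hr (-5.24 ± 0.73, adjusted p = 0.00148). The call of *Men-b* was lost without 48 hr replicate 2 or 3.

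Markers of tissues outside the blood were also higher. Plasmatocytes with a UMI of any marker of fat body, muscle, gut, or salivary gland and epidermis were 81.3%, 69.7% and 51.5% at 48 hr, against 42.9%, 21.7% and 12.9% at 24 hr. The 13 fat body markers summed to 269, 207 and 94.4 CPM at 48 hr, against 21.8, 27.7 and 26.9 CPM at 24 hr. The fat body storage protein gene *Lsp1beta* had 71.9, 62.5 and 16.6 CPM at 48 hr, against 0.753, 0 and 0.109 CPM at 24 hr, and *apolpp* (listed as *Rfabg*), the lipoprotein of hemolymph, had 125, 71.7 and 38.3 CPM at 48 hr, against 1.51, 0.605 and 0.436 CPM at 24 hr. The 14 muscle markers summed to 205, 154 and 73.3 CPM at 48 hr, against 20.3, 15.8 and 10.2 CPM at 24 hr, and all 4 that were tested were higher, such as *Mlc2*, a myosin light chain (4.70 ± 0.63, adjusted p = 0.00122). The 15 gut markers summed to 13.7, 6.44 and 3.43 CPM at 48 hr, against 1.51, 0.363 and 0.981 CPM at 24 hr, and the 17 markers of salivary gland and epidermis to 34.0, 26.7 and 12.6 CPM at 48 hr, against 1.51, 1.57 and 1.20 CPM at 24 hr. In every one of these lists 48 hr replicate 1 was highest and replicate 3 lowest of the 48 hr libraries. An alternative added after seeing these values kept only cells with 0 UMIs of the 4 lists. These were 48, 57 and 148 cells at 48 hr and 40, 1044 and 2010 at 24 hr. It left 193 genes called higher and 169 lower of 4561 tested. There *NimC1* changed by 2.58, *crq* by 2.93, *Glt* by 2.23, *stg* by 1.76, *CG8501* by 4.32, *Miox* by 7.99, *Rel* by -2.24, *kay* by -2.26 and *Tep4* by -2.92, all called, whereas 23 of 97 named calls with a value there were lost (adjusted p 0.0622 to 0.808). These were *CycB*, *RnrS*, *Mcm7*, *RpA-70*, *LanB2*, *Spn28Dc*, *PGRP-SA*, *et*, *Tpi*, *Gapdh1*, *Pgm*, *sut1*, *UGP*, *blw*, *RFeSP*, *Npc1a*, *ena*, *SCAR*, *spi*, *Men-b*, *RpS2*, *RpL34b* and *mt:ATPase8*. The part of other tissues' RNA in the other calls was not tested.

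The *atilla*-positive cells of the same libraries, the cells with at least 1 *atilla* UMI and no *PPO1* or *PPO2*, served as a second class of cells. A test of class by time, with library as a block, called 1576 of 7045 genes (22.4%), 746 more positive and 830 more negative in plasmatocytes. The classes were divided by *atilla* UMIs, so genes that vary with *atilla* are not independent of the division. The *atilla*-positive cells also differed in make-up between the times. They had medians of 27, 43 and 40 *atilla* UMIs at 48 hr, against 8, 4.5 and 4 at 24 hr. Of these cells, 25.2% to 47.1% had an *Hml* UMI at 48 hr and 61.6% to 78.6% at 24 hr. The part of this make-up in the differences below was not tested. Of 604 genes called higher in plasmatocytes and tested in both classes, 211 were also called higher in *atilla*-positive cells and 19 were called lower there. Of 486 called lower, 245 were also called lower in *atilla*-positive cells.

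Cell division set the classes apart. The G2 and M phase list had a median of 0.64 in plasmatocytes and -1.41 in *atilla*-positive cells. The difference was called more positive in plasmatocytes for 24 of its 25 genes, beside 10.6% of all genes. *CycB* averaged 55.1 ± 3.5 CPM at 48 hr and 26.4 ± 2.9 CPM at 24 hr in plasmatocytes, and 6.67 CPM at 48 hr and 24.6 CPM at 24 hr in *atilla*-positive cells, a difference of 2.80 ± 0.30 (adjusted p = 0.000157). For *stg* the difference was 2.47 ± 0.37 (adjusted p = 0.00103). DNA replication genes had medians of 0.47 in plasmatocytes and -0.82 in *atilla*-positive cells, and 19 of 27 were more positive in plasmatocytes, beside 10.6% of all genes. Matrix genes had medians of 0.55 in plasmatocytes and -0.61 in *atilla*-positive cells. Of 19, 14 were more positive and 4 more negative in plasmatocytes, beside 10.6% and 11.8% of all genes. *NimC1* differed by 2.11 ± 0.24 (adjusted p = 0.000237), *Glt* by 2.41 ± 0.26 and *Pxn* by 2.19 ± 0.28.

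Glycolysis went the other way. Its median was -0.15 in plasmatocytes and 0.70 in *atilla*-positive cells, and 9 of 16 genes were more negative in plasmatocytes, beside 11.8% of all genes. *Gapdh2* averaged 309 ± 3.4 CPM at 48 hr and 688 ± 36 CPM at 24 hr in plasmatocytes, and 1679 CPM at 48 hr and 741 CPM at 24 hr in *atilla*-positive cells, a difference of -2.34 ± 0.17 (adjusted p = 2.75e-05). *Fit1* averaged 58.0 CPM at 48 hr and 132 CPM at 24 hr in plasmatocytes, and 869 CPM at 48 hr and 247 CPM at 24 hr in *atilla*-positive cells (-3.04 ± 0.17, adjusted p = 8.37e-06). *LamC*, a lamin, and *Arc1*, a capsid-like protein, both named after their values were seen, were also lower at 48 hr in plasmatocytes and higher at 48 hr in *atilla*-positive cells. In all, 35 genes were called in both classes with opposite directions and a called difference. By contrast, antimicrobial peptides were lower in both classes, with medians of -3.27 in plasmatocytes and -2.66 in *atilla*-positive cells, and 2 of 12 genes differed, beside 22.4% of all genes. *kay* and *puc* were called lower in both classes and *Jra* in plasmatocytes only, and all 3 changes were more negative in plasmatocytes, with differences of -1.37 ± 0.13 for *kay*, -1.43 ± 0.13 for *Jra* and -1.11 ± 0.12 for *puc*. None of 5 fat body genes differed between the classes by this test, and 8 of 12 muscle genes were more positive in plasmatocytes, beside 10.6% of all genes.

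**Figure D5:**
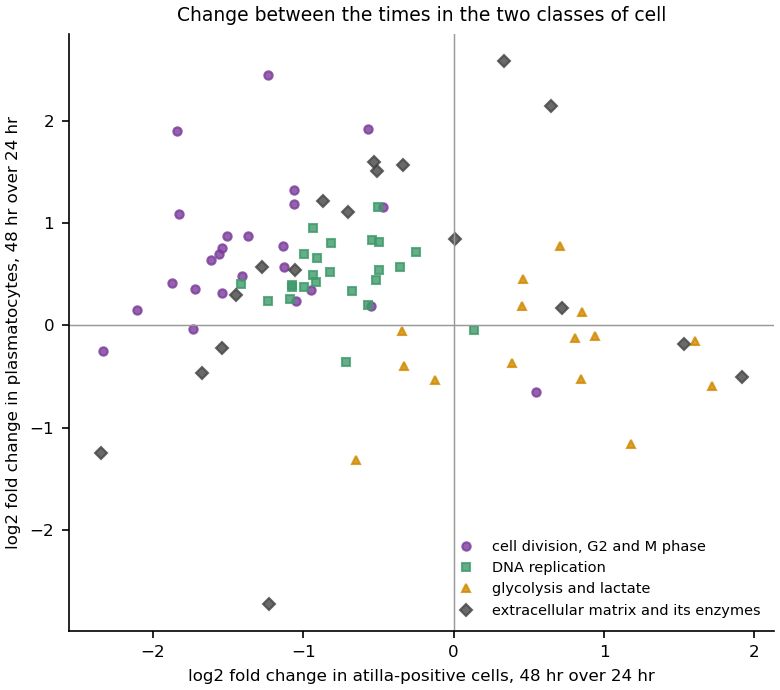
Each point is a gene, placed by its log2 fold change of 48 hr over 24 hr in *atilla*-positive cells (horizontal axis) and in plasmatocytes (vertical axis), for 4 lists. Most genes of cell division and DNA replication lie at upper left, with medians of 0.64 and 0.47 in plasmatocytes against -1.41 and -0.82 in *atilla*-positive cells, and most glycolytic genes lie at lower right.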

How the data were processed

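The authors made the deposited counts from Drop-seq reads with the Drop-seq tools and STAR, as UMI counts per gene and cell barcode, and each table pools the 3 libraries of 1 time, which barcode suffixes tell apart. The tables hold 14597 genes at 48 hr and 13313 at 24 hr, with 12600 in both, and a gene listed in 1 table only was given 0 counts in the other. Counts were summed over the plasmatocytes of each library, and edgeR (version 4.0.16, R 4.3.3) fitted time with TMM factors, filterByExpr and the quasi-likelihood test on these 6 sums. The 4 genes of the rule stayed in the library sizes and were not tested. p-values were Benjamini-Hochberg adjusted over all 5995 genes tested. The difference between plasmatocytes and *atilla*-positive cells was the class by time term of the same test, with library as a block. The study states no test for this comparison. The procedure was tested on simulated counts. Shares of cells were compared by an exact permutation test. No doublet caller was run. The gene coordinates are from Ensembl annotation of the Release 6 genome.

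Named genes were the 10 called genes with the largest change in each direction that did not overlap between the times and reached 20 CPM, the 3 largest among those with a CG symbol, and up to 4 called members of each list with the lowest p (in a list with no call, its most abundant member). *CG8501*, *CG8157*, *LamC* and *Arc1*, and members cited only to show the rest of a list, were added after their values were seen. The cells and the lists were chosen with earlier results of these data known. Alternatives were RLE factors, DESeq2 (1.42.0), no filter on low counts, the replicate number as a block, at least 1000 UMIs per cell, thinning to 1000 UMIs, at least 2 *Hml* UMIs, cells with no UMI of 5 further lamellocyte markers, 24 hr cells of the authors' plasmatocyte clusters only, and each library left out.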

Additional observations from a re-analysis of the deposited data

Results flagged for a closer look

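The 48 hr over 24 hr change differed between plasmatocytes and *atilla*-positive cells, by the class by time term of edgeR's test, for 746 genes in the positive direction and 830 in the negative direction. The values below are differences of log2 fold changes, plasmatocytes minus *atilla*-positive cells, for named genes that passed this test.

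Among genes more positive in plasmatocytes, the difference was 2.11 for *NimC1*, 2.41 for *Glt* and 2.19 for *Pxn*. It was 2.47 for *stg*, 2.80 for *CycB* and 1.53 for *Mcm7*, which act in division and replication. It was 5.15 for *miple2*, 5.46 for *Mlc2*, a muscle gene, and 2.79 for *fax*. In the 24 hr *atilla*-positive cells *miple2* had 42.2, 0.486 and 4.46 CPM and *Mlc2* had 5.21, 0 and 36.9 CPM. These libraries spread widely, and neither gene was called in *atilla*-positive cells (adjusted p = 0.896 and 0.629), so the size of both differences is uncertain.

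Among genes more negative in plasmatocytes, the difference was -4.38 for *Lip4*, -3.34 for *stv* and -3.04 for *Fit1*. Of the glycolytic genes it was -2.34 for *Gapdh2*, -2.40 for *Tpi* and -1.36 for *Gapdh1*. It was -2.08 for *LamC*, -2.07 for *Arc1* and -1.56 for *Tep4*. The AP-1 genes and their target gave -1.37 for *kay*, -1.43 for *Jra* and -1.11 for *puc*.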

How the results depend on the processing

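No named gene changed direction with its call under any setting run. Of the 118 named genes that were called, 91 stayed called with each library left out in turn. The genes called were 611 higher and 489 lower, 1100 in all. Without the low-count filter they were 1152 higher and 882 lower (2034 of 13398 tested). Thinning cells to 1000 UMIs, with the rule applied again to the thinned counts, gave 230 higher and 210 lower (440). It ended 18 of 88 named calls with a value there, among them *CycB*, *RnrS*, *PPO3*, *ND-75*, *SREBP*, *Npc1a* and *Fit1*. Cells with no UMI of 5 lamellocyte markers gave 193 higher and 100 lower (293), and cells with no UMI of other tissues' markers, an alternative chosen after seeing the data, gave 193 higher and 169 lower (362). These cell selections also tested fewer genes. RLE factors gave 553 higher and 568 lower. Leaving out 1 library gave 327 to 833 higher, 234 to 874 lower and 574 to 1707 in all. The lowest total was without 48 hr replicate 1 and the highest without 24 hr replicate 1. The difference between classes was more positive in plasmatocytes for 746 genes, 494 without the filter and 437 to 597 with 1 library left out, and more negative for 830 and 1319 without the filter. The replicate block gave 1034 calls. Same-numbered libraries correlated at 0.034, 0.0082 and -0.13 in their deviations from the group means, and differently numbered libraries at -0.12 to 0.15. With 3 libraries at each time these values cannot settle whether the numbers pair the libraries. The block ended the calls of 7 named genes. The cause of these shifts was not tested. Of the 124 genes named by rule or choice, 35 share exon bases with a gene on the other strand and 12 with one on the same strand, and the strand used in counting is not given in the sources used here.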
